A study of Mus musculus with 2 samples.

Results

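The genes described here encode the machinery of regulated exocytosis, by which a cell releases stored vesicles when it is stimulated. They were chosen by symbol from the protein-coding genes of GENCODE vM21 on GRCm38: Snap23, Snap25, Snap29 and Snap47, and the symbols made of Syt, Stx, Stxbp, Vamp, Rab3, Unc13 or Cplx with a number and at most 1 more letter. This gave 62 of 21951 genes, namely 4 of Snap, 7 of Vamp, 15 of Stx, 7 of Stxbp, 4 of Unc13, 4 of Cplx, 17 of Syt and 4 of Rab3.

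Chromatin accessibility was assayed by ATAC-seq, in which a transposase cuts and tags open DNA, in LβT2 cells, a single immortalized mouse line derived from pituitary gonadotropes. Both replicate samples, replicate 1 and replicate 2, were at passage 21 and received the same treatment in a pulse system: 4 pulses of 2 nM gonadotropin-releasing hormone (GnRH), 2 h apart, over 6 h and 45 min, with harvest 45 min after the last pulse. There was 1 condition and no control sample was analysed here, so no value below is a response to GnRH. Peaks had been called in each replicate separately, and the lists held 58519 peaks in replicate 1 and 64984 in replicate 2.

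Gonadotropes store luteinizing hormone and follicle-stimulating hormone in dense-core granules and release them when GnRH raises cytosolic Ca2+. Granules fuse when a VAMP protein on the granule zips together with a syntaxin and a SNAP-25-type protein of the plasma membrane into a SNARE bundle. Rab3 GTPases help bring vesicles to the membrane, syntaxin-binding proteins (Stxbp genes) and Munc13 proteins (Unc13 genes) prepare the SNAREs, complexins hold the bundle and synaptotagmins sense Ca2+.

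The cell type was checked against marker genes. A promoter was taken as 1 kb to either side of any transcription start site (TSS) of a gene, and a gene had a promoter peak when a summit lay there. Of 5 gonadotrope markers, 3 had a promoter peak in both replicates. Given as −log10 q in replicate 1 and then in replicate 2, the order kept throughout, Lhb reached 37.6 and 60.5, Cga 11.95 and 36.0, and Gnrhr 9.36 and 18.0. Nr5a1 had one in replicate 2 only (−log10 q of 4.84), and Fshb had none. None of 6 markers of other pituitary lineages (Pomc, Tbx19, Gh, Prl, Tshb and Pou1f1) and neither Ptprc nor Pecam1, markers of blood and endothelium, had a promoter peak in either replicate. Over all coding genes, 30.8% had one in both replicates and 54.1% had none. These absences alone therefore say little of the cell type.

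RefSeq promoters, each from 250 bases before to 50 after a start, were matched to 49 of the 62 members, 61 promoters in all. The stretches printed here are the 250 bases before a start on GRCm38.p6, 5′ to 3′. They are from Vamp1, Stx6, Stxbp5l, Unc13b, Syt14 and Rab3c, which had the highest promoter peaks of their families, from Rab3a and Stx7 with a peak in both replicates, and from Stx1a, Syt1 and Unc13a, where no peak lay at the start shown. Capitals mark matches, on either strand, to any of 10 motifs searched: SP/KLF GGGCGG, E-box CACGTG, NRF1 GCATGCGC, EGR GCGTGGGCG, CRE TGACGTCA, ETS CCGGAAGT, AP1 TGACTCA, SF1 TCAAGGTCA, and the RE1 and CTCF elements.
Vamp1, chr6:125215331-125215580, plus strand: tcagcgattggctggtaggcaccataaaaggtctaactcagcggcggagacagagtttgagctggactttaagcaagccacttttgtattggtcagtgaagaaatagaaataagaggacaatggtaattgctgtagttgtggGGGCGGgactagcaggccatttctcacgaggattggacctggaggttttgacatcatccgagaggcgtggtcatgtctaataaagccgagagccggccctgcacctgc
Stx6, chr1:155158453-155158702, plus strand: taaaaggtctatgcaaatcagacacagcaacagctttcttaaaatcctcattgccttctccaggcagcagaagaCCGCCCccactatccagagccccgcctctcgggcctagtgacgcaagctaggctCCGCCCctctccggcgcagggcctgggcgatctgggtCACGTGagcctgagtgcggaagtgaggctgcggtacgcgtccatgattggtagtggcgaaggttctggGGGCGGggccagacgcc
Stx7, chr10:24149067-24149316, plus strand: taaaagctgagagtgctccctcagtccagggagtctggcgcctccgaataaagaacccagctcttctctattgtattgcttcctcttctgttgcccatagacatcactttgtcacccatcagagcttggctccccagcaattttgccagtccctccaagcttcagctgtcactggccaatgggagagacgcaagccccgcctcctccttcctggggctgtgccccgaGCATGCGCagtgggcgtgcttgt
Stxbp5l, chr16:37384959-37385208, minus strand: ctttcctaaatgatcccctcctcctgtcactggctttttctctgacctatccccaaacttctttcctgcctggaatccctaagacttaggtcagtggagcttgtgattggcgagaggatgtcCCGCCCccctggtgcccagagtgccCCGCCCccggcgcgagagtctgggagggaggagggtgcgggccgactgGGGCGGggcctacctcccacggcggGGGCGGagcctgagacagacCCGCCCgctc
Unc13b, chr4:43058703-43058952, plus strand: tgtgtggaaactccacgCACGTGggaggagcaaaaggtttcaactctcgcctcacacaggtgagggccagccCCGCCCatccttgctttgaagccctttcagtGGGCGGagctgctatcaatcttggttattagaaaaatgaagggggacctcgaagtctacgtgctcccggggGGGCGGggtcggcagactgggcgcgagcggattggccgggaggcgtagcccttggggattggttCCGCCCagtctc
Syt14, chr1:193035776-193036025, minus strand: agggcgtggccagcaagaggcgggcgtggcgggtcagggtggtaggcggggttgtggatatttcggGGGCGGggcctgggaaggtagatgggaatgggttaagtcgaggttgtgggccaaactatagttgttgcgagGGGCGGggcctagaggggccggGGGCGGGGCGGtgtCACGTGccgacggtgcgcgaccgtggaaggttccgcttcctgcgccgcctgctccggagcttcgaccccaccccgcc
Rab3a, chr8:70754453-70754702, plus strand: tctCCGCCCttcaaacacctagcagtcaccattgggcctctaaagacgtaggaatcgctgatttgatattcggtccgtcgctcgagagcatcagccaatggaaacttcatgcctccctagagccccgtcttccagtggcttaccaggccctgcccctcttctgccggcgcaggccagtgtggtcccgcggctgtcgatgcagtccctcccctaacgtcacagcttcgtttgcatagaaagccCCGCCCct
Rab3c, chr13:110280207-110280456, minus strand: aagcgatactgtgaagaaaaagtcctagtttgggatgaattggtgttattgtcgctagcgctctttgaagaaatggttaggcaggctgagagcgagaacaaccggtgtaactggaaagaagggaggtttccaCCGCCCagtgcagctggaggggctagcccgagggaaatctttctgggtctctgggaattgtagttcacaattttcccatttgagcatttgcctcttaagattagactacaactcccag
Stx1a, chr5:135023232-135023481, plus strand: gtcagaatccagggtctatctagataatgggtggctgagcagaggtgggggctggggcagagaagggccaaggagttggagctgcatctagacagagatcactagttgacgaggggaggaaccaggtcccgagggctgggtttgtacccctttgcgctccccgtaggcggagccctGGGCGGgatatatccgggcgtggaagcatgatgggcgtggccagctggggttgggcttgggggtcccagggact
Syt1, chr10:109009112-109009361, minus strand: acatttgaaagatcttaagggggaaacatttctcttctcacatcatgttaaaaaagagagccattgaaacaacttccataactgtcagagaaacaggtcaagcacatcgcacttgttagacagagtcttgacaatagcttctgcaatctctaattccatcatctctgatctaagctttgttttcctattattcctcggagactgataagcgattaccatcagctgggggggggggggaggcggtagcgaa
Unc13a, chr8:71671758-71672007, minus strand: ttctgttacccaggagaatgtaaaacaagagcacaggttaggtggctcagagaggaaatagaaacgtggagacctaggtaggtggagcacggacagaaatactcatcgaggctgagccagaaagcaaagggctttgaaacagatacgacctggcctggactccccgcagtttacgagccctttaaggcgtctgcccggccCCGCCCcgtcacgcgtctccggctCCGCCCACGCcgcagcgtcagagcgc

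Stxbp5l had 5 SP/KLF matches in the stretch shown, the nearest 10 bases before the start, Unc13b had 4 with an E-box, and Stx6 had 3 with an E-box 85 bases before the start. In Syt14, 4 SP/KLF matches were found, of which a pair overlapped, next to an E-box. In Unc13a, an EGR match overlapped an SP/KLF match, and in Stx7 an NRF1 match lay 23 bases before the start. The stretch of Syt1 held no match, while the promoter at another RefSeq start of Syt1 held the SP/KLF letters. A match describes the letters only and is not evidence that a factor binds there.

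A promoter peak was present for 26 members in replicate 1 (41.9%), where 32.3% of all protein-coding genes had one, and for 35 members in replicate 2 (56.5%, all genes 44.4%). In both replicates it was present for 25 members (40.3%, all genes 30.8%). This order turned when peaks were asked to be higher: at a −log10 q of at least 5 in each replicate it was 12 members (19.4%, all genes 20.1%), and at 10 it was 6 (9.68%, all genes 10.8%). A further 10 members had one in replicate 2 only (16.1%, all genes 13.6%) and 1 in replicate 1 only (1.61%, all genes 1.52%). The other 26 had none (41.9%, all genes 54.1%). Genes are not replicates, so these shares describe the list and were not tested against each other. The members had more annotated starts, with a median of 5 TSSs per gene against 3 over all genes. Of the 33 members with at least 5 TSSs, 14 had a promoter peak in both replicates (42.4%, all such genes 45.7%), of the 23 with 2 to 4 TSSs 9 did (39.1%, all such genes 26.3%), and of the 6 with 1 TSS 2 did (33.3%, all such genes 15.3%). Among genes with many starts, the members' share was therefore not above that of all genes.

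**Figure D1:**
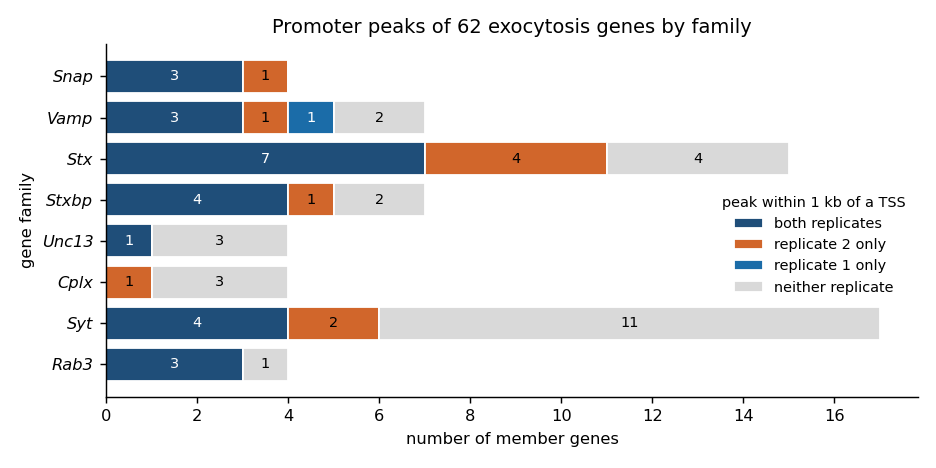
Number of member genes of each family (horizontal axis) with a peak summit within 1 kb of a TSS in both replicates, in replicate 2 only, in replicate 1 only or in neither. Snap is the family with no member lacking a peak, and Syt holds 11 of the 26 members without one.

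The height of a promoter peak is given by −log10 q, by the fold enrichment over the background and by the tags at the summit, that is, the extended reads that overlap it. The number of tags follows from fold and p, and is given with an exact 95% Poisson interval. The background was 3.05 tags in replicate 1 and 3.54 in replicate 2, and no listed peak held fewer than 10 and 11 tags. These values, the folds and q hold for calls made with the genome size preset of the fly. The effect of that preset was not tested. Over the 25 members with a promoter peak in both replicates, the medians of −log10 q were 6.22 and 12.5 (mean 9.38 ± 4.47, SD, n = 2). Over the 6752 protein-coding genes with one in both they were 6.97 and 17.1 (mean 12.03 ± 7.15, SD, n = 2). Both sets come from the same 2 samples, and the median of the members was the lower in each. The median tags were 18 and 27 for the members and 19 and 32 for all genes. Replicate 2 had the higher −log10 q for 23 of the 25 members (92.0%), and for 92.9% of all genes with a peak in both. This difference between the lists was thus a general one, with a median ratio of tags of 1.67 for the members and 1.65 for all genes.

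**Figure D2:**
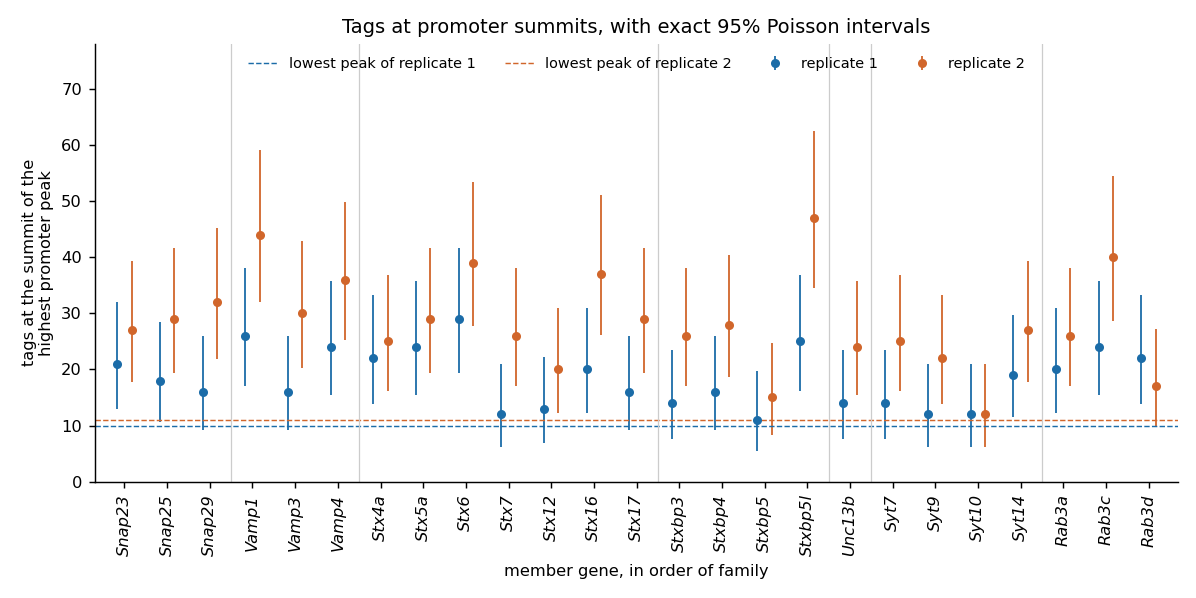
Tags at the summit of the highest promoter peak (vertical axis) for each of the 25 members with one in both replicates, in replicate 1 (blue) and replicate 2 (orange). Bars are exact 95% Poisson intervals and dashed lines mark the lowest peak of each list, 10 and 11 tags.

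Among the SNAP-25-type proteins, Snap25, the plasma membrane SNARE of neurons and endocrine cells, had a promoter peak in both replicates. It covered chr2:136713234-136713857 in replicate 1 and chr2:136713397-136714433 in replicate 2. Its summit held 18 tags in replicate 1 (interval 10.7 to 28.4) and 29 in replicate 2 (19.4 to 41.6). The −log10 q of this peak was 6.22 and 14.3, and its fold 4.69 and 6.61. Snap29, a SNARE of endosomal and autophagic membranes, had the highest mean −log10 q of the family, with 4.80 and 17.1, folds of 4.20 and 7.28, and 16 (9.15 to 25.98) and 32 (21.9 to 45.2) tags. Its summits lay 64 and 53 bp from its only TSS, and the promoter is shared with Pi4ka, a lipid kinase gene, so the peak cannot be assigned to either gene alone. Snap23, the widely expressed relative of Snap25, had a −log10 q of 8.54 and 12.5. Snap47 had a peak in replicate 2 only, at a start it shares with Jmjd4.

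Of the vesicle SNAREs, Vamp1, a synaptobrevin of secretory vesicles, was the highest. Its −log10 q was 12.9 and 29.3, its fold 6.67 and 9.92, and its tags 26 (17.0 to 38.1) and 44 (32.0 to 59.1), with the summit 137 bp upstream of the TSS in both. Vamp4, of the trans-Golgi network, had a −log10 q of 11.1 and 21.0, and Vamp3, of recycling endosomes, 4.80 and 15.2. Vamp2, the other synaptobrevin of secretory vesicles, had no promoter peak: its nearest summit was 5531 bp from a TSS in replicate 1 and 5360 bp in replicate 2. The pair of synaptobrevin genes thus differed, with a peak in both replicates for Vamp1 and in neither for Vamp2. Vamp8, a SNARE of late endosomes and granules, had a peak in replicate 2 only, and Vamp5, whose gene lies 4755 bp from Vamp8 on chromosome 6, had none. Vamp9 was the member with a promoter peak in replicate 1 only, 943 bp from a TSS. A peak of replicate 2 overlapped it, with its summit 1038 bp from a TSS and so just outside the promoter, and Vamp9 counted as having a peak in both when promoters were 2 kb to either side. In replicate 1, the 50 bp at its summit occurred at 9 places in the genome, so its reads could come from other copies.

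Of the 8 syntaxins of internal membranes, 6 had a promoter peak in both replicates (75.0%), and of the 7 plasma membrane syntaxins 1 did (14.3%, all genes 30.8%). With replicate 2 alone, that is, without replicate 1, the counts were 7 of 8 (87.5%) and 4 of 7 (57.1%, all genes 44.4%), so the difference was smaller there. At a −log10 q of at least 5 in each replicate they were 3 of 8 and 1 of 7 (all genes 20.1%). The highest was Stx6, of the trans-Golgi network, with a −log10 q of 15.7 and 24.0, folds of 7.41 and 8.82, and 29 (19.4 to 41.6) and 39 (27.7 to 53.3) tags, summits lying 72 and 114 bp upstream of the TSS. Stx16, also of the trans-Golgi network, had 7.74 and 22.0, Stx5a, of the Golgi, 11.1 and 14.3, and Stx17, of autophagosomes, 4.80 and 14.3. The endosomal syntaxins Stx7 and Stx12 had lower values in replicate 1, with 2.31 and 11.7 for Stx7 and 2.88 and 6.93 for Stx12. Stx18, of the endoplasmic reticulum, had a peak in replicate 2 only and Stx8 had none. The Stx5a promoter is shared with the coding gene 1700092M07Rik.

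Among plasma membrane syntaxins, Stx4a, which takes part in secretion in many cell types, had a −log10 q of 9.36 and 10.8 and 22 (13.8 to 33.3) and 25 (16.2 to 36.9) tags. Its peak was not at the most 5′ start but at one 17470 bp further along the gene. Stx1a, the syntaxin of neuronal and endocrine release, had a peak in replicate 2 only, with a −log10 q of 3.57, a fold of 3.53 and 15 tags (8.40 to 24.7). This peak, from 135040852 to 135041044 on chromosome 5, was near a start 17578 bp from the most 5′ one, so that no peak covered the Stx1a stretch printed above. The interval of its tags reached below the 11 tags of the lowest peak in replicate 2. Stx11 and Stx19 had no promoter peak in either replicate, and Stx2 and Stx3 had one in replicate 2 only.

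The syntaxin-binding proteins include the member with the highest mean −log10 q at its promoter. Stxbp5l, a tomosyn, which occupies syntaxins and limits SNARE assembly, had a −log10 q of 11.95 and 32.6, folds of 6.42 and 10.6, and 25 (16.2 to 36.9) and 47 (34.5 to 62.5) tags. The other tomosyn gene, Stxbp5, had the lowest −log10 q of the family, 1.79 and 3.57, with 11 (5.49 to 19.7) and 15 (8.40 to 24.7) tags. The Poisson intervals of the tomosyn genes did not overlap in replicate 2, and did in replicate 1. Stxbp3, which is widely expressed, had a −log10 q of 3.49 and 11.7, and Stxbp4, a syntaxin 4 partner, 4.80 and 13.4 at a promoter shared with Cox11. Stxbp2 and Stxbp6 had none.

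Of the Munc13 priming factors, 1 of 4 had a promoter peak in both replicates (25%, all genes 30.8%), and of the complexins 0 of 4. With so few genes these shares say little. The Munc13 gene with a peak was Unc13b, at −log10 q 3.49 and 10.0, with folds of 3.70 and 5.51, and 14 (7.65 to 23.5) and 24 (15.4 to 35.7) tags, while Unc13a, Unc13c and Unc13d had none. For Unc13a, the main Munc13 of neurons, the nearest summits lay 30347 and 30334 bp from a TSS. Cplx1 had a promoter peak in replicate 2 only, 407 bp from a TSS, with a −log10 q of 2.43, a fold of 3.09 and 13 tags (6.92 to 22.2), which is 2 tags above the lowest peak of that list. Cplx2, Cplx3 and Cplx4 had none, and the nearest summits to Cplx2 lay 50394 and 50171 bp away.

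Of the 17 synaptotagmins, 4 had a promoter peak in both replicates (23.5%, all genes 30.8%). A further 2 had one in replicate 2 only (11.8%, all genes 13.6%) and 11 had none (64.7%, all genes 54.1%). The 4 became 2 when a promoter was 500 bp to either side (all genes 28.4%), and 1 at a −log10 q of at least 5 (all genes 20.1%). Among the 8 that bind Ca2+, 3 had one in both, Syt7, Syt9 and Syt10, and 5 had none, and among the other 9, Syt14 had one in both and 6 had none. Syt7, a sensor of high Ca2+ affinity found on endocrine granules, had a −log10 q of 3.49 and 10.8, folds of 3.70 and 5.73, and 14 (7.65 to 23.5) and 25 (16.2 to 36.9) tags. Its summits lay 416 and 383 bp upstream of the TSS. Syt14, which does not bind Ca2+, was the highest of the family with 6.97 and 12.5, folds of 4.94 and 6.17, and 19 (11.4 to 29.7) and 27 (17.8 to 39.3) tags. Syt9, a sensor of fast release, had 2.31 and 8.44, and Syt10 2.31 and 1.91. In both of these genes the peaks of the replicates were different ones that did not overlap, so their place among the members with a peak in both rests on separate peaks. Syt1, the sensor of fast transmitter release, had no promoter peak, and its nearest summits were 75542 and 77694 bp away. Syt4, a synaptotagmin of dense-core vesicles, had a peak in replicate 2 only, 18 bp from its TSS, with a −log10 q of 2.99, a fold of 3.31 and 14 tags (7.65 to 23.5). Syt17 also had a peak in replicate 2 only. The members without any were Syt1, Syt2, Syt3, Syt5, Syt6, Syt8, Syt11, Syt12, Syt13, Syt15 and Syt16.

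Rab3 genes, whose products mark secretory vesicles, had a promoter peak in both replicates in 3 of 4 cases (all genes 30.8%). At a −log10 q of at least 10 in each replicate it was 1 of 4 (all genes 10.8%). A family of 4 genes shows little by its share. Rab3c was the highest, with a −log10 q of 11.1 and 25.1, folds of 6.17 and 9.04, and 24 (15.4 to 35.7) and 40 (28.6 to 54.5) tags. Rab3a, the main form in neurons and neuroendocrine cells, had 7.74 and 11.7, folds of 5.19 and 5.95, and 20 (12.2 to 30.9) and 26 (17.0 to 38.1) tags. Its peak covered chr8:70754497-70754737 and chr8:70754481-70754735, most of the stretch printed above. Rab3d, of exocrine and endocrine granules, had 9.36 and 4.84, and with Syt10 it was 1 of the 2 members whose −log10 q was lower in replicate 2. Its tags, 22 (13.8 to 33.3) and 17 (9.90 to 27.2), overlapped in their intervals. Rab3b had no promoter peak.

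**Figure D3:**
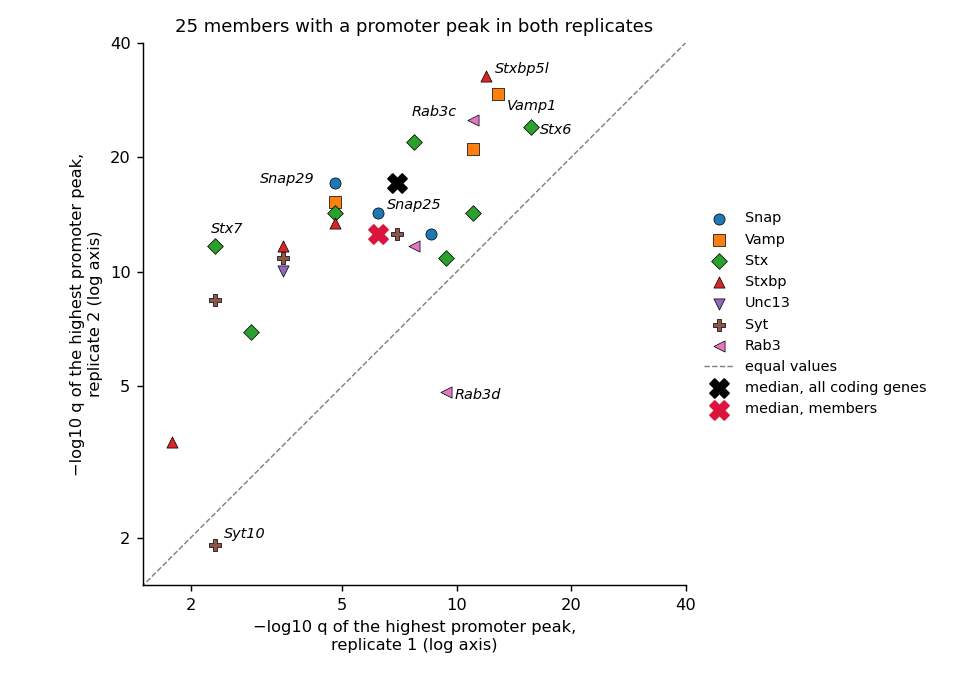
The −log10 q of the highest promoter peak in replicate 1 (horizontal, log axis) against replicate 2 (vertical, log axis) for the 25 members with one in both, with symbols by family and crosses at the medians of the members and of all coding genes. All but Syt10 and Rab3d lie above the line of equal values.

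Across these 25 genes, Spearman's rho of −log10 q between replicates was 0.715, and it was 0.757 across all genes with a promoter peak in both. Genes are not independent, and rho is given as a description. The highest peaks of both replicates overlapped for 23 of the 25 members, and their summits were a median of 79 bp apart. Summits lay within 250 bp of a TSS for 22 of the 25 in each replicate, at median distances of 70 and 59 bp (97 and 81 bp over all genes). The overlap, the distance between summits and the count within 250 bp were not computed over all genes. Peaks had median widths of 297 and 557 bp (397 and 601.5 bp over all genes with a peak in both). All summits of the highest promoter peaks of members, apart from that of Vamp9, were in sequence that occurs once in the genome. Of the 6752 genes with a promoter peak in both replicates, 512 had a summit in sequence that occurs more than once. Among the 10 members found in replicate 2 only were Snap47, Vamp8, Stx1a, Stx2, Stx3, Stx18, Cplx1, Syt4 and Syt17. The −log10 q of all 10 ran from 2.43 to 13.4 with a median of 4.84, and their tags from 13 to 28 with a median of 17, where the median over all peaks of that list was 16. For the 26 members without a promoter peak the nearest summit was a median of 24.9 kb from a TSS in replicate 1 and 18.8 kb in replicate 2. No peak means that none was listed at this depth and with these calling settings, not that the promoter was closed.

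When a −log10 q of at least 10 was asked of each replicate, 6 members kept a promoter peak in both (all genes 10.8%): Vamp1, Vamp4, Stx5a, Stx6, Stxbp5l and Rab3c. None of them is among the 12 genes taken as the core of neuronal and endocrine release. With 6 of 62 members kept, this says little about the core. Among the core genes, Snap25, Syt7 and Rab3a had a promoter peak in both replicates, Syt4, Stx1a and Cplx1 in replicate 2 only, and Syt1, Vamp2, Unc13a and Cplx2 in neither. Over all genes the shares were 30.8%, 13.6% and 54.1%, and 12 genes show little by their counts.

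Promoters with and without a peak were also compared by base composition. The median GC share was 64% for the 27 RefSeq promoters of members with a peak in both replicates, 60.3% for 9 of members with a peak in 1 replicate and 61.3% for 25 of members with none. Over all coding genes it was 60.7% with a peak in both and 52.3% with none. The members without a peak were therefore richer in GC than other genes without one. The ratio of observed to expected CpG had a median of 0.750, 0.710 and 0.582 in the members' classes, against 0.773 for all genes with a peak in both and 0.309 for all genes with none. It exceeded 0.6 in 22 of 27 (81.5%), 6 of 9 (66.7%) and 11 of 25 (44.0%) of the members' promoters, and in 73.0% and 27.2% of those of all genes. These are medians over promoters, some of which belong to the same gene, and no test was made.

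**Figure D4:**
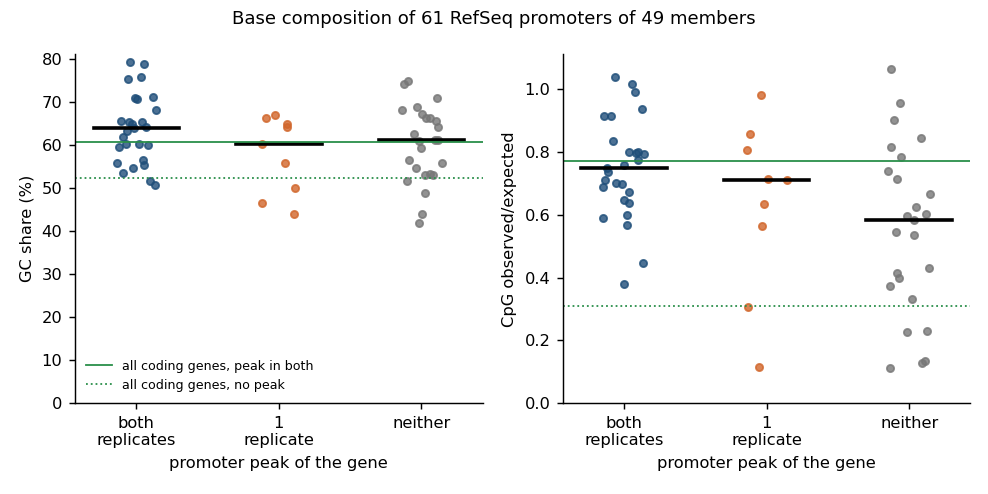
GC share (left) and observed over expected CpG (right) of 61 RefSeq promoters of 49 members, by whether the gene had a promoter peak in both replicates, in 1 or in neither. Black bars are the medians of the members, and green lines the medians of all coding genes with a peak in both (solid) and with none (dotted).

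Over the whole promoters, the SP/KLF letters occurred in 42 of the 61 promoters (68.9%), and in 47.8% of 20150 promoters of all coding genes. They were in 77.8% of the members' promoters with a peak in both replicates and 60.0% with none (all genes 63.1% and 33.5%). The NRF1 letters occurred in 6 promoters (9.84%, all promoters 3.65%), of Snap23, Stx4a, Stx7, Stx12 and Stxbp5, all with a peak in both replicates. For Stx7, overlapping promoters with the same site were both counted. Over all genes the letters were in 5.55% of promoters with a peak in both and 1.82% with none. The AP1 letters occurred in 3 (4.92%, all promoters 4.65%), of Syt2, Syt6 and Syt8, which had no peak. Over all genes they were in 2.94% of promoters with a peak in both and 6.12% with none. An E-box was found in 8 (13.1%, all promoters 8.03%), with overlapping promoters of Syt6 both counted. The CRE of Stxbp3 (all promoters 2.31%), the EGR match of Unc13a (0.878%) and the SF1 match of Syt2 (0.338%) were each found in 1 promoter. The ETS letters, RE1 and CTCF were found in 0 of 61, and in 5.35%, 0.0645% and 0.581% of all promoters. Snap25, Vamp2, Vamp3, Unc13d, Cplx4, Syt4, Syt5, Syt7, Syt12, Syt13 and Syt17 were among the members without a promoter in these counts. Promoters on chromosome 18, which holds Cplx4 and Syt4, were left out, also for all genes.

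Peaks with a summit in the gene body, over 1 kb from every TSS of that gene, were then counted. In replicate 1, 13 members had such a peak (21.0%, all genes 19.8%), and in replicate 2, 20 did (32.3%, all genes 22.9%). Overlapping ones in both replicates were found in 8 members (12.9%, all genes 14.9%), among them Stx4a, Stxbp4, Unc13c, Syt2, Syt9, Syt10 and Syt14. The members' genes were longer, with a median of 32.6 kb against 17.4 kb, and per 100 kb of gene they held 0.507 peaks in replicate 1 and 1.08 in replicate 2 (all genes 1.298 and 1.46). Per length, the members thus had fewer body peaks than all genes in each replicate. Of their 24 and 51 body peaks, 58.3% and 52.9% had a multi-copy summit, one whose 50 bp occur at more than 1 place in the genome (mean 55.6% ± 3.81, SD, n = 2). When 200 bp were compared, the mean share was 24.3%. Over all genes, 62.8% and 56.5% had one over 50 bp (mean 59.7% ± 4.43, SD, n = 2). Reads at such summits could have come from another copy, and their part in the counts was not tested.

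Shared body peaks with single-copy summits in both replicates were found in 4 members, among them Stxbp4, Syt9 and Stx4a, where they lay in introns. The bases around the summits in Stxbp4, Syt9 and Stx4a are given on the strand of the gene on GRCm38.p6. They held no match to the motifs above. In the Stxbp4 stretch, capitals mark the bases that differ from its best match in the mitochondrial genome.
Stxbp4 intron, chr11:90538795-90538895, minus strand: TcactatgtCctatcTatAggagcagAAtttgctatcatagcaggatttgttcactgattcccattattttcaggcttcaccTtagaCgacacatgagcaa
Syt9 intron, chr7:107412583-107412683, plus strand: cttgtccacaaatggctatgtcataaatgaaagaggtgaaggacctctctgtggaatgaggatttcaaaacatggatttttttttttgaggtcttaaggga
Stx4a intron, chr7:127837153-127837253, plus strand: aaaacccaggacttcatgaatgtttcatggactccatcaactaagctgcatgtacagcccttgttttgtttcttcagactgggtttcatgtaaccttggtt

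The Stxbp4 peak stood apart. It covered chr11:90538575-90539142 in replicate 1 and chr11:90538634-90539142 in replicate 2, and held 157 (133.4 to 183.6) and 177 (151.9 to 205.1) tags. Its −log10 q was 200.8 and 224.5 (mean 213 ± 16.7, SD, n = 2) and its fold 39.0 and 39.2, while the promoter of the same gene had 16 and 28 tags. It ranked 10 of the 2536 such pairs in all coding genes. The ratio of its tags between replicates was 1.13, when the median over member promoters was 1.67. The summit lies in Gm11512, a processed pseudogene inside an intron of Stxbp4. The stretch printed above matched 6458 to 6558 of the mitochondrial genome, within mt-Co1, at 92.1% with 8 differences. Of the 140 promoter and body summits of members, the other 138 reached 48.5% at most, with a median of 43.6%, and 2 of the 2536 pairs over all coding genes reached 80%. The part of mitochondrial reads in this peak was not tested.

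The other pairs were lower. In Syt9 the peak lay 41.8 kb from the TSS, in an intron, with 26 (17.0 to 38.1) and 46 (33.7 to 61.4) tags, a −log10 q of 12.9 and 31.5 and folds of 6.67 and 10.4. It was higher than the promoter of Syt9, which held 12 and 22 tags. In Stx4a the values were 11 (5.49 to 19.7) and 21 (13.0 to 32.1) tags, a −log10 q of 1.79 and 7.67 and folds of 2.96 and 4.85. Rab3b, without a promoter peak, held 6 single-copy body peaks in replicate 2, with tags from 11 to 23, and 0 in replicate 1.

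**Figure D5:**
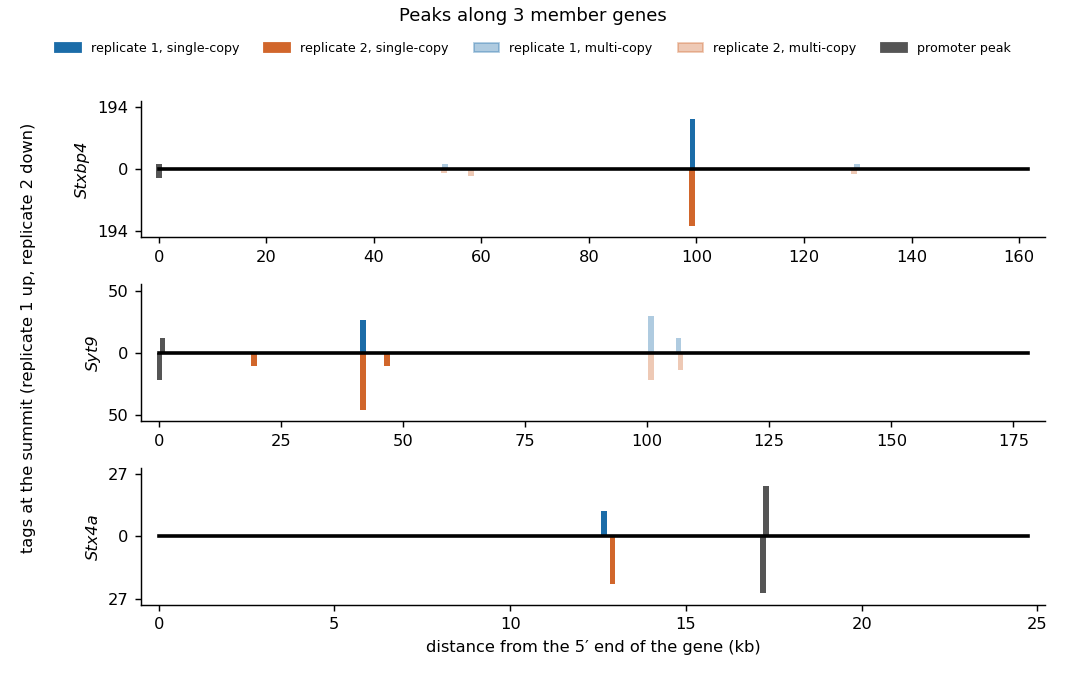
Tags at the summits of peaks along Stxbp4, Syt9 and Stx4a, against distance from the 5′ end of the gene in kb, with replicate 1 upward and replicate 2 downward. Full colours are single-copy summits, pale colours multi-copy ones and grey the promoter peak. The Stxbp4 peak, at 157 and 177 tags, is far above its promoter.

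Other genes of tethering, docking, priming and fusion were counted in the same way. Of 67 such genes outside the rule, 27 had a promoter peak in replicate 1 (40.3%, all genes 32.3%) and 40 in replicate 2 (59.7%, all genes 44.4%). In both replicates 26 had one (38.8%, all genes 30.8%). A further 14 had one in replicate 2 only (20.9%, all genes 13.6%) and 1 (Erc2) in replicate 1 only (1.49%, all genes 1.52%). The other 26 had none (38.8%, all genes 54.1%). Their share with a peak in both was near that of the members (40.3%). Shared body peaks were found in 22 of them (32.8%, members 12.9%, all genes 14.9%), but these genes were longer, with a median of 60.5 kb. Per 100 kb they held 1.54 and 1.70 body peaks, nearer to all genes (1.298 and 1.46) than to the members (0.507 and 1.08). By mean −log10 q the highest promoter peaks were those of Napa, with 26.1 and 83.4, Rab27b, a GTPase of secretory granules, with 30.6 and 77.9, Napb, with 52.7 and 52.9, and Exoc5, of the exocyst tether, with 19.7 and 56.7. Napa and Napb encode SNAP proteins that recruit NSF to take SNARE bundles apart. All 4 were above the promoter peak of any member in each replicate. Syp, Sv2a, Sv2b and Sv2c of synaptic vesicles, and Rims1, Rims2, Rims3 and Bsn of the release site, had no promoter peak, while Rims4 had one in both replicates (−log10 q of 6.22 and 3.57). Syn1 and Pclo, also of the synapse, had one in both replicates. So did Dnajc5, Syngr2, Ppfia1, Ppfia3, Cadps, Cadps2 and Apba1 of the same list, while Syngr1, Syn3 and Erc1 had one in replicate 2 only. Syngr3, Syn2, Ppfia2 and Ppfia4 had none. For Rims2 the nearest summits lay 1358 and 1370 bp from a TSS, just outside the promoter, and for Sv2b 1366 bp in replicate 2.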

How the data were processed

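ATAC-seq of LβT2 cells was available as 1 peak list for each of 2 replicates. According to the submitters' processing notes and the study's methods, reads were mapped to GRCm38 (mm10) with Bowtie2, duplicates were removed and MACS2 called the peaks, with the genome size preset of the fly. Versions were not stated. For each peak the authors deposited a score, a fold (ratio) of enrichment over the background, and −log10 of the p-value and of the q-value. The other deposited columns give positions. Read totals were not used here.

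Positions were set beside GENCODE vM21 with scipy 1.17.1, numba 0.67.0, pandas 2.3.3 and numpy 2.4.6 in Python 3.11.15, and drawn with matplotlib 3.10.9. Tags and the background were solved from fold and p. Body peaks of both lists counted as shared from 1 bp of overlap on. Copy number was counted over 50 bp centred on the summit, on either strand. Promoter sequences were from RefSeq (GRCm38.p6), without those on chromosome 18. Tags, promoter peaks, overlap, Poisson intervals, copy number, motif matches and likeness to the mitochondrial genome were tested on simulated data.

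Median peaks held 14 and 16 tags, so intervals are wide. They cover counting error only. With 1 group, no groups of samples were compared.

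Values per replicate are given for core genes, for the highest member of each family by mean −log10 q among those with a promoter peak in both replicates, and for up to 6 shared single-copy body peaks with the highest mean −log10 q. Some of these genes are not reported here. Members with a peak in 1 replicate are given by range and members with none by name. Other members, Rab3b among them, were named after their values were seen, as was the choice of printed promoters. The members and lists were chosen with earlier results of these data known. Alternatives were the promoter width, the overlap, the threshold on −log10 q, single-copy summits, 200 bp for the copy number, the annotation, a wider reading of Rab3, leaving out each replicate and, chosen after seeing the data, leaving out summits alike to the mitochondrial genome.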

Additional observations from a re-analysis of the deposited data

How the results depend on the processing

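The count of 25 members with a promoter peak in both replicates fell to 12 at a −log10 q of at least 5 and to 6 at 10. Their share fell from 40.3% to 19.4% and 9.68%, and that of all coding genes from 30.8% to 20.1% and 10.8%, so the members' share was above that of all genes in the main analysis and slightly below it at these thresholds. Under every other alternative it was 23 to 35, the latter with replicate 2 alone, and it was 30 of 74 members when Rab30 to Rab39 were counted too. The 8 members with shared body peaks became 3 at a −log10 q of at least 5, 2 at 10 and 4 with single-copy summits, and 13 to 20 when either replicate was left out, since 1 list then needs no overlap. The median −log10 q of 9.38 rose to 13.9 and 18.0 at these thresholds, which remove low values, and was 5.51 to 11.7 with either replicate alone. The multi-copy share of 55.6% was 43.2% and 29.2% at these thresholds and 24.3% when 200 bp were compared, for which the cause was not tested. Leaving out the summits alike to the mitochondrial genome, chosen after seeing the data, left these results at 25 members, 8 members, a median of 9.38 and a share of 57.4%. Of the counts by family, 82 were within 1.5 times the main count and 14 were not. No paired analysis was possible because there was 1 group. A peak needed 10 tags in replicate 1 and 11 in replicate 2, so weaker promoters would not have been listed.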
